A study of Arabidopsis thaliana with 12 samples.

Results

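The plastid genome of Arabidopsis thaliana carries genes with which the organelle transcribes and translates its own DNA, and a few genes for other tasks. Of the 32743 genes in the count tables, 133 lay on the plastid chromosome (Pt), and 34 of them were taken by a list of gene identifiers. They were 4 genes for the plastid-encoded RNA polymerase (rpo), 12 for proteins of the small ribosomal subunit (rps), 11 for proteins of the large subunit (rpl) and 7 others, namely matK, accD, clpP, cemA, ycf1 and 2 copies of ycf2. The genes ycf2, rps7, rpl2 and rpl23 lie in the inverted repeat and have a second copy with an identical coding sequence, so the 34 genes hold 30 distinct sequences. Reads with several positions were counted at each, so the 2 copies had nearly equal counts and the 4 pairs are not independent measurements. The counts of the 2 copies differed most for rpl2, with 74849 and 75450 in Total otp90 replicate 2.

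The study measured RNA editing in plastids and mitochondria in a mutant of OTP90 (AT1G25360). The product of this gene is a PPR (pentatricopeptide repeat) protein of the type that edits organelle RNA. It was located in both organelles. The study reported editing defects in mitochondrial transcripts of the mutant, and observed none in plastid editing or plastid RNA. Leaves of untreated plants in the vegetative state, aged 35 days and grown in long days, gave 4 groups of 3 biological replicates, named Mito otp90, Mito WT, Total otp90 and Total WT. The otp90 plants came from 1 T-DNA insertion line, SM_3_29659, and the WT plants were of the accession Col-0. How the extract called Mito was prepared is not given in the sources used here, so Mito and Total are names of libraries, and whether plants were pooled in a replicate is not stated either.

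Mito libraries held 24660745 to 30706658 counts in otp90 and 27611023 to 32418348 in WT, and Total libraries held 56800553 to 60464017 in otp90 and 49434596 to 52443538 in WT. The 4 leaf markers, among them RBCS1A, were present in each library, while the 7 markers of root hair, flower and seed all stayed under the filter on low counts. OTP90 itself had 17, 6 and 9 counts in Mito otp90, against 16, 17 and 20 in Mito WT, and 6, 10 and 7 in Total otp90, against 8, 16 and 6 in Total WT. These counts, summed over both sides of the insertion, are too low to check the labels.

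As background, plastid genes are transcribed by a bacterial-type RNA polymerase, whose core subunits are encoded in the plastid by the rpo genes, and by phage-type polymerases encoded in the nucleus. The rpoB, rpoC1 and rpoC2 genes form a transcription unit that the nuclear-encoded polymerase reads. Plastid ribosomes resemble bacterial ones and combine the proteins of the rps and rpl genes with others imported from the cytosol. Plastid genes are mostly read as long transcripts over several genes, which are then cut, trimmed, spliced and edited, so neighbouring genes can share a transcript and still differ in the RNA that remains.

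The shortest genes are shown as whole coding sequences because rpl32 and rpl33, which differed most between the extracts, were among them. The shortest of all, rpl36, differed far less. The sequences were read from the plastid chromosome of the RefSeq TAIR10.1 assembly, where 33 of the 34 genes had the same span as in the tables (matK differed), and the start and stop codons are in capitals. The gene rpl32 (ATCG01020, Pt:113449-113607, plus strand) has 159 bases of exon, rpl33 (ATCG00640, Pt:67488-67688, plus strand) has 201, and rpl36 (ATCG00760, Pt:79489-79602, minus strand) has 114.
rpl32: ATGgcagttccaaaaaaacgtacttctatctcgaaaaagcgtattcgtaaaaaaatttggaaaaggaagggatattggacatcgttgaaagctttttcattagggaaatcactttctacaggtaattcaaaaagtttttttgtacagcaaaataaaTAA
rpl33: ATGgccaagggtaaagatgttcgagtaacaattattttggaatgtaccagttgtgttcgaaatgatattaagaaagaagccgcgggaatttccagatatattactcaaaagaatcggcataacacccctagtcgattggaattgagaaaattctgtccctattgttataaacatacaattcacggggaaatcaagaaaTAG
rpl36: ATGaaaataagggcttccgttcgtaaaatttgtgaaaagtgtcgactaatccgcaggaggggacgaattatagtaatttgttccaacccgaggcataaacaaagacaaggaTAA

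The next sequences are shown because of how the reads were counted. Of the 34 genes, 6 have more than 1 exon, and introns were not opened when the reads were aligned, so a read over a splice junction could be placed only in part or not at all. In the following stretches, the end of exon 1 is in capitals and the first 30 bases of exon 2 in lower case, as they join in the spliced RNA. The exon 1 of rpl16 (ATCG00790, Pt:81189-82652, minus strand) has 9 bases, that of rps16 (ATCG00050, Pt:5084-6188, minus strand) has 40 and that of clpP (ATCG00670, Pt:69910-71882, minus strand) has 71, each of them shorter than a read of 75 bases. In the last sequence, the capitals are the 16 bases that lie in both rpl22 (ATCG00810) and rps3 (ATCG00800, Pt:82826-83482, minus strand), where a read touching both genes was assigned to neither (Pt:83447-83502, minus strand).
rpl16: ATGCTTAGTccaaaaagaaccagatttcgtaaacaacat
rps16: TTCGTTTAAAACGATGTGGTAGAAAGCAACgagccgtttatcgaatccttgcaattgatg
clpP: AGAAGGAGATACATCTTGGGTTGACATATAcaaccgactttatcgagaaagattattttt
rpl22 to rps3: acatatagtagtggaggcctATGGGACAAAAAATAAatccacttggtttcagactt
A neighbour on the same strand within 75 bases was annotated for 14 of the 34 genes. The part of splicing and of these overlaps in the values was not tested.

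All 34 genes were well covered, the lowest count being 317, for rps16 in a Mito otp90 library. Levels are given as CPM (counts scaled to the library total), with TMM factors over the 12 libraries, per kilobase of exon, the only scale on which genes are compared here. The highest level was that of rps14, for a small subunit protein encoded beside the photosystem I genes psaA and psaB, at 20678, 17334 and 19143 CPM per kilobase in Mito otp90 and 19372, 18310.1 and 15516 in Mito WT, against 17157, 14982 and 13709 in Total otp90 and 13438, 13651 and 17325 in Total WT. Its groups overlapped in WT but not in otp90, where all 3 Mito libraries were above the 3 Total libraries. At the other end, ycf1, which encodes a protein of the import machinery in the inner envelope, stood at 24.2, 46.3 and 34 CPM per kilobase in Mito otp90 and 32.1, 37.6 and 34.5 in Mito WT, against 63, 69.2 and 44.6 in Total otp90 and 81.2, 90.7 and 94.2 in Total WT. Its Mito libraries were below its Total libraries in WT, and the groups overlapped in otp90.

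**Figure D1:**
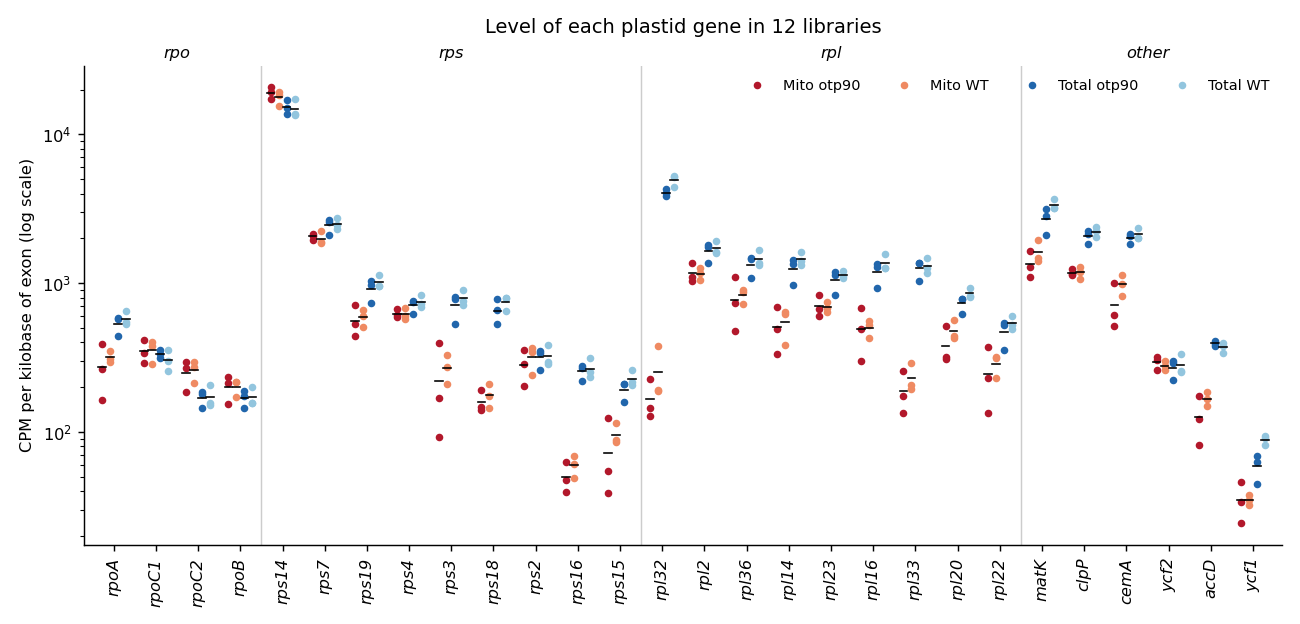
Level of 28 of the 30 distinct genes in CPM per kilobase of exon on a log axis, grouped by class and ordered by mean level within a class. Points are libraries (3 per group) and short lines are group means, and rps14 was highest and ycf1 lowest in mean level over the 12 libraries.

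Next to rps14, the highest mean levels over all libraries were those of rpl32 and rps7. The small subunit gene rps7 had 2076, 2142 and 1962 CPM per kilobase in Mito otp90 and 1858, 2235 and 1886 in Mito WT, against 2661, 2589.6 and 2094 in Total otp90 and 2313, 2452 and 2720.3 in Total WT. In otp90 its groups overlapped, and in WT its Mito libraries were below its Total libraries. The lowest after ycf1 were rps15 and rps16. The class medians per library, averaged over 3 libraries, were 262 ± 83.8 CPM per kilobase in Mito otp90 and 288 ± 32.9 in Mito WT, against 252 ± 21.4 in Total otp90 and 238 ± 38.0 in Total WT for rpo genes (SD, n = 3 each). For rpl genes they were 505 ± 182 in Mito otp90 and 559 ± 116 in Mito WT, against 1230.2 ± 219 in Total otp90 and 1367 ± 173 in Total WT. The rps medians were 411 ± 154 in Mito otp90 and 452 ± 51.1 in Mito WT, against 757 ± 124 in Total otp90 and 830 ± 94.4 in Total WT. The rpo genes were thus the class with the lowest median in Total libraries, and the gap between classes was smaller in Mito libraries. The median of the class of others depends on whether ycf2 is entered with 1 or both copies.

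As a share of all plastid counts, which does not depend on the scaling between libraries, the 34 genes took 5.50 ± 0.825% in Mito otp90 and 6.01 ± 0.671% in Mito WT, against 3.9 ± 0.6% in Total otp90 and 4.59 ± 0.508% in Total WT (SD, n = 3 each). The rpo genes took 0.652 ± 0.175% in Mito otp90 and 0.735 ± 0.170% in Mito WT, against 0.330 ± 0.047% in Total otp90 and 0.359 ± 0.0359% in Total WT. The rpl genes took 0.765 ± 0.197% in Mito otp90 and 0.849 ± 0.153% in Mito WT, against 0.780 ± 0.126% in Total otp90 and 0.935 ± 0.0864% in Total WT. The rps genes took 2.19 ± 0.0888% in Mito otp90 and 2.27 ± 0.127% in Mito WT, against 1.25 ± 0.164% in Total otp90 and 1.38 ± 0.168% in Total WT. Without rps14 the rps share was 0.788 ± 0.145% in Mito otp90 and 0.866 ± 0.132% in Mito WT, against 0.624 ± 0.102% in Total otp90 and 0.721 ± 0.0896% in Total WT. The share of the rpo genes was larger in each Mito library than in any Total library of the same genotype. This also held for the rps genes and for the 34 genes together, while the shares of the rpl genes and of the others overlapped. All plastid counts include psbA, whose log2 fold change of Mito over Total was -1.50 in otp90 and -1.33 in WT. The sums hold both copies of ycf2, rps7, rpl2 and rpl23, whose reads were counted at each copy. No test was made on these sums.

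The comparison of Mito with Total libraries asked how the 2 extracts differ in these transcripts. In otp90, 20 of the 34 genes were lower in Mito, 1 (rpoC2) was higher and 13 did not pass (edgeR quasi-likelihood test, Benjamini-Hochberg adjusted p under 0.05 over all genes tested), with a median log2 fold change of -0.76. Over all 16337 genes tested, 22.3% were lower and 24.8% higher, with a median of 0.02. In WT, 24 genes were lower, again 1 (rpoC2) was higher and 9 did not pass, with a median of -0.82, where 20.9% of 16436 genes were lower and 22.8% higher, with a median of 0.00. Of the 45 plastid photosynthesis genes, 35 were lower and 3 higher in otp90 (median -1.04), and 34 were lower and none higher in WT (edgeR, median -1.19), where 35 had an unadjusted p under 0.05. The leaf markers summed to 11803 to 12130 CPM in Mito otp90 and 10811 to 11469 in Mito WT, against 15707 to 19618 in Total otp90 and 15416 to 21725 in Total WT, and 3 of the 4 were lower in Mito in both genotypes (median -0.69 in otp90 and -0.95 in WT). Their part in the result was not tested. In bulk RNA, fewer plastids or cells and less RNA in each cannot be told apart.

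The counts of members that passed are given by class. In otp90, 9 of 11 rpl genes (median -0.92), 6 of 12 rps genes (median -0.63), 4 of 7 others (median -0.80) and 1 of 4 rpo genes were lower in Mito, and 1 rpo gene was higher (median of the 4, 0.17). In WT, all 11 rpl genes and 7 of 12 rps genes were lower, with medians of -0.84 and -0.70, and so were 5 of the 7 others, with a median of -1.06. Of the 4 rpo genes in WT, 1 was lower and 1 higher, with a median of 0.23. Differences between classes were not tested. By the values alone, the Mito and Total groups did not overlap for 18 genes lower and 2 higher in otp90, where 28.8% of all genes were lower and 29.8% higher without overlap. In WT this held for 27 genes lower and 1 higher, where it was 27.7% and 29.4% of all genes.

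**Figure D2:**
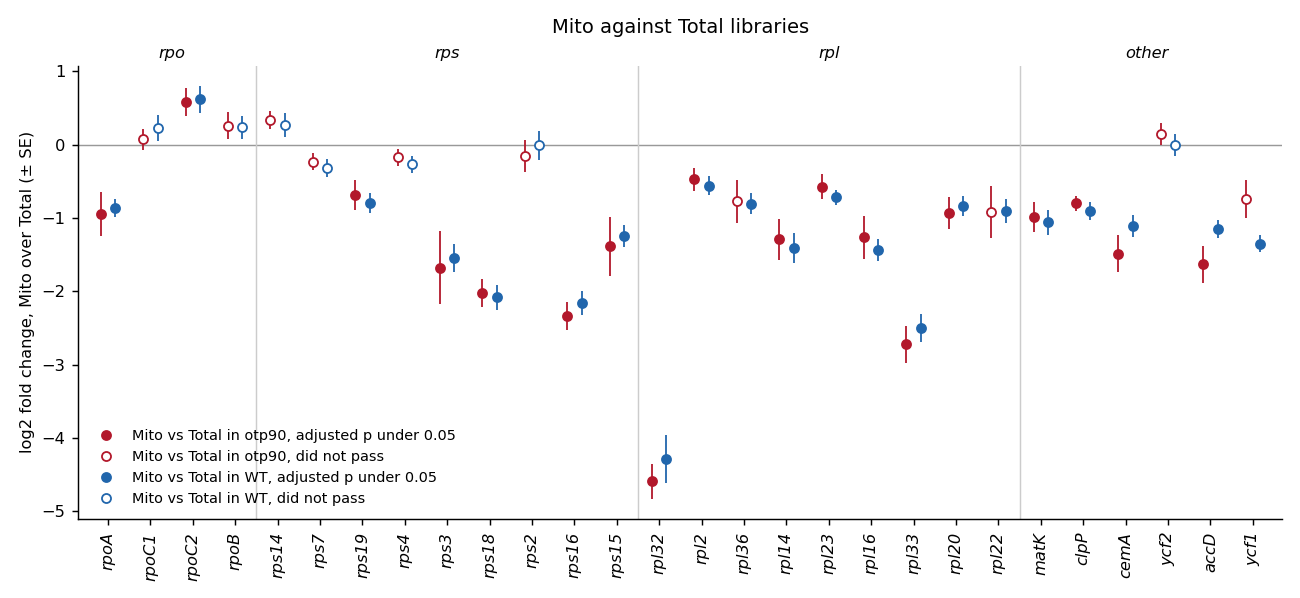
Log2 fold change of Mito over Total for 28 of the 30 distinct genes, with otp90 left of WT in each pair and bars of 1 SE from the edgeR fit. Filled points passed an adjusted p of 0.05, and rpl32 lies lowest at -4.59 in otp90 and -4.29 in WT while rpoC2 is the one filled point above 0.

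The share of all plastid genes was itself lower in Mito libraries. When the libraries were scaled to the plastid counts without psbA, the plastid gene with the most counts, values became relative to other plastid transcripts, and the median of all genes moved to 0.38 in otp90 and 0.51 in WT. In that scaling 13 members were lower and 6 higher in Mito otp90 than in Total otp90, where 7.66% of all genes were lower and 42.2% higher. In WT 14 were lower and 6 higher, where 4.71% of all genes were lower and 46.5% higher. The 6 higher ones were rpoB, rpoC1, rpoC2, rps14 and the 2 copies of ycf2 in both genotypes. Their values include the shift of the median of all genes. The genes rpl32, rpl33, rps16 and rps18 were lower in both scalings and both genotypes.

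Of the polymerase genes, rpoA was lower in Mito, rpoC2 was higher, and rpoB and rpoC1 did not pass. The gene rpoA, for the alpha subunit, lies apart from the others in the genome, at the end of the ribosomal protein cluster (ATCG00740, Pt:77901-78890, minus strand). It had 164, 390.1 and 266 CPM per kilobase in Mito otp90 and 293, 348 and 310.4 in Mito WT, against 576, 585 and 440.3 in Total otp90 and 531, 549 and 650.0 in Total WT, and every Mito library was below every Total library of its genotype. The log2 fold change of Mito over Total was -0.95 (SE 0.298, adjusted p 0.0347) in otp90 and -0.86 (SE 0.125, adjusted p 0.00235) in WT (edgeR, Benjamini-Hochberg). Relative to the plastid counts it was -0.56 (SE 0.282, adjusted p 0.128) in otp90 and -0.34 (SE 0.131, adjusted p 0.0598) in WT (edgeR, Benjamini-Hochberg), so rpoA did not pass in that scaling.

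The other subunits, beta (rpoB), beta prime (rpoC1) and beta double prime (rpoC2), are encoded side by side on the minus strand between positions 15938 and 26329. The gene rpoC2 had 186, 295 and 269 CPM per kilobase in Mito otp90 and 214, 274 and 296 in Mito WT, against 179, 184 and 145 in Total otp90 and 156, 152 and 206 in Total WT, with no overlap between Mito and Total in either genotype. Its log2 fold change was 0.58 (SE 0.189, adjusted p 0.0402) in otp90 and 0.62 (SE 0.18, adjusted p 0.0308) in WT (edgeR, Benjamini-Hochberg). When 1 library was left out, rpoC2 passed in 1 of 6 fits in otp90 (adjusted p 0.00979 to 0.117) and in 3 of 6 in WT (adjusted p 0.0268 to 0.128, edgeR, Benjamini-Hochberg), with log2 fold changes of 0.40 to 0.79 in otp90 and 0.48 to 0.77 in WT. In otp90 it passed only without Mito otp90 replicate 1, and in WT it was lost without Mito WT replicate 2 or 3 or Total WT replicate 1. The call of rpoA held in 2 of these 6 fits in otp90 and in 6 of 6 in WT. Relative to the plastid counts rpoC2 had 0.96 (SE 0.188, adjusted p 0.00264) in otp90 and 1.16 (SE 0.172, adjusted p 0.00107) in WT (edgeR, Benjamini-Hochberg).

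The neighbours rpoB and rpoC1 did not pass between extracts. For rpoB the values were 154, 234 and 212 CPM per kilobase in Mito otp90 and 171, 215 and 217 in Mito WT, against 175, 187 and 144 in Total otp90 and 157, 156 and 201 in Total WT, and the groups overlapped. Its log2 fold change was 0.26 (SE 0.181, adjusted p 0.273) in otp90 and 0.23 (SE 0.154, adjusted p 0.26) in WT (edgeR, Benjamini-Hochberg). For rpoC1 they were 292, 413 and 338 CPM per kilobase in Mito otp90 and 287, 399.8 and 376 in Mito WT, against 332, 356 and 313 in Total otp90 and 299.6, 255 and 354 in Total WT, again with overlap, and log2 fold changes of 0.08 in otp90 and 0.23 in WT did not pass. The next gene on the strand, rps2, for a small subunit protein, had -0.16 in otp90 and -0.01 in WT and did not pass either.

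The contrast between rpoA and rpoB can be read within each library, where no scaling enters. The ratio of the 2 levels per kilobase, rpoA to rpoB, was 1.07, 1.67 and 1.26 in Mito otp90 and 1.71, 1.62 and 1.43 in Mito WT, against 3.3, 3.12 and 3.05 in Total otp90 and 3.37, 3.53 and 3.24 in Total WT. The RNA of rpoA was thus more abundant per length than that of rpoB in all 12 libraries, and less so in each Mito library than in any Total library. These 2 genes were set side by side after their values were seen, and the ratio is a description.

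Among the ribosomal protein genes, rpl32, for a protein of the large subunit, showed the largest difference of all 34 genes. It had 146, 227 and 128 CPM per kilobase in Mito otp90 and 187, 380.3 and 190.0 in Mito WT, against 4325, 3842 and 4017 in Total otp90 and 5152, 4401 and 5270.5 in Total WT, so that it was the second most abundant of the 30 genes in Total libraries and among the lower ones in Mito libraries. Its log2 fold change was -4.59 (SE 0.236, adjusted p 6.03e-05) in otp90 and -4.29 (SE 0.327, adjusted p 0.000426) in WT (edgeR, Benjamini-Hochberg), which is 24.1-fold lower in Mito in otp90 and 19.5-fold lower in WT. It passed in each of the 6 fits that left out 1 library in otp90 and in each of the 6 in WT.

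The gene rpl33, also for the large subunit, had 135, 256 and 174 CPM per kilobase in Mito otp90 and 194, 288 and 206 in Mito WT, against 1372, 1361 and 1033 in Total otp90 and 1265, 1168 and 1465 in Total WT. For rpl33 the log2 fold change was -2.72 (SE 0.254, adjusted p 0.000255) in otp90 and -2.50 (SE 0.185, adjusted p 0.000415) in WT (edgeR, Benjamini-Hochberg), and Mito and Total did not overlap. Beside rpl33 on the same strand lies rps18, for a small subunit protein, with 141, 190.2 and 147 CPM per kilobase in Mito otp90 and 175, 210.2 and 144 in Mito WT, against 657, 778 and 528 in Total otp90 and 646, 799 and 799.9 in Total WT. The log2 fold change of rps18 was -2.02 (SE 0.186, adjusted p 0.000246) in otp90 and -2.08 (SE 0.171, adjusted p 0.000487) in WT (edgeR, Benjamini-Hochberg). The gene rpl20, which follows on the opposite strand, had log2 fold changes of -0.93 in otp90 and -0.84 in WT and passed in both. The level of rpl32 relative to that of rps14 was 0.00705, 0.0131 and 0.00667 in Mito otp90 and 0.00965, 0.0208 and 0.0122 in Mito WT, against 0.252, 0.256 and 0.293 in Total otp90 and 0.383, 0.322 and 0.304 in Total WT, so that the 2 most abundant genes of Total libraries stood further apart in every Mito library.

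A pair of ribosomal genes of low level were also lower in Mito. The intron-containing rps16 had 39.7, 62.9 and 47.3 CPM per kilobase in Mito otp90 and 49.1, 68.8 and 60.7 in Mito WT, against 276, 270.2 and 220.0 in Total otp90 and 254, 233 and 313 in Total WT, and Mito was below Total throughout. Mito over Total gave rps16 a log2 fold change of -2.34 (SE 0.189, adjusted p 0.000167) in otp90 and -2.16 (SE 0.169, adjusted p 0.000427) in WT (edgeR, Benjamini-Hochberg). For rps15, which lies between ndhH and ycf1, the values were 39, 123 and 54.6 CPM per kilobase in Mito otp90 and 85, 114 and 88.5 in Mito WT, against 208, 209 and 158 in Total otp90 and 218, 208 and 259 in Total WT, with log2 fold changes of -1.39 in otp90 and -1.25 in WT that passed in both. In contrast, rps14, rps4, rps7 and rps2 did not pass in either genotype, with log2 fold changes spanning -0.23 to 0.33 in otp90 and -0.32 to 0.26 in WT.

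The ribosomal protein cluster allows the genes of 1 long region to be compared. From rpl23 to rpoA, 9 genes of the minus strand are given in their order. In WT all 9 were lower in Mito. The log2 fold changes of the first 4, rpl23, rpl2, rps19 and rpl22, were -0.72, -0.56, -0.79 and -0.90, those of rps3, rpl16 and rpl14 in the middle were -1.54, -1.44 and -1.41, and those of rpl36 and rpoA at the end were -0.80 and -0.86. The middle values were thus lower than those at both ends. In otp90 the order was similar, with -1.68, -1.26 and -1.29 in the middle, although rpl22 and rpl36 did not pass there. Differences between neighbours were not tested.

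**Figure D3:**
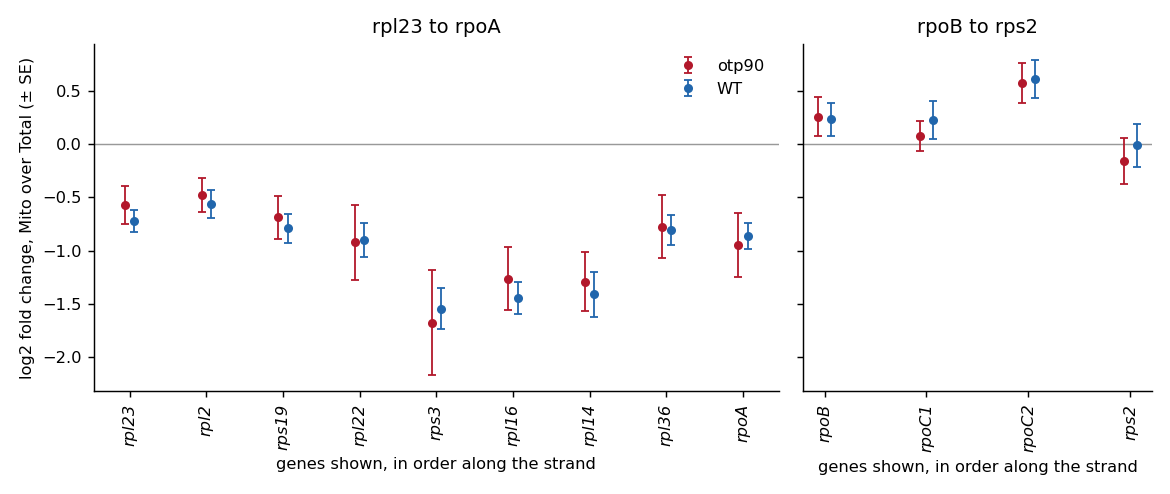
Log2 fold change of Mito over Total for 2 groups of genes on the minus strand, in the order in which the strand is read, with bars of 1 SE. From rpl23 to rpoA all points are below 0 with the lowest at rps3 (-1.68 in otp90, -1.54 in WT), and from rpoB to rps2 they lie between -0.16 and 0.62.

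Within a library the ratio of the level of rps3 to that of rpl2 was 0.0885, 0.29 and 0.152 in Mito otp90 and 0.2, 0.262 and 0.231 in Mito WT, against 0.445, 0.446 and 0.394 in Total otp90 and 0.438, 0.476 and 0.47 in Total WT. Thus both genes of the cluster were closer in level in each Total library than in any Mito library. The gene rps3, for a small subunit protein, had 91.7, 398 and 168 CPM per kilobase in Mito otp90 and 209, 329.8 and 272 in Mito WT, against 806, 785 and 534 in Total otp90 and 711, 753 and 905 in Total WT, and the widest spread between replicates of these genes in Mito otp90. For rpl23, of which the first copy is given, the values were 599.6, 827 and 671 CPM per kilobase in Mito otp90 and 643, 750.3 and 679 in Mito WT, against 1188, 1132 and 833 in Total otp90 and 1089, 1115 and 1213 in Total WT, with no overlap between Mito and Total.

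The ribosomal genes rps19, rpl2, rpl14, rpl16, rpl20, rpl22 and rpl36 had means of 246 to 1170.2 CPM per kilobase in Mito otp90 and 287 to 1160.2 in Mito WT, against 471 to 1643 in Total otp90 and 538 to 1711 in Total WT. Of these 7, rpl22 had the lowest and rpl2 the highest mean in Total libraries of both genotypes.

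Of the genes with other functions, accD, cemA, clpP and matK were lower in Mito in both genotypes. The maturase gene matK, which lies within the intron of a tRNA gene and encodes a factor for splicing of plastid introns, had 1096, 1636 and 1274 CPM per kilobase in Mito otp90 and 1410.2, 1943 and 1473 in Mito WT, against 2825, 3127 and 2097 in Total otp90 and 3204, 3193 and 3698 in Total WT. Between extracts matK differed by -0.99 (SE 0.204, adjusted p 0.00652) in otp90 and -1.06 (SE 0.167, adjusted p 0.00312) in WT (edgeR, Benjamini-Hochberg). The gene clpP, for the catalytic subunit of the Clp protease of the stroma, had 1153, 1238 and 1141 CPM per kilobase in Mito otp90 and 1195, 1291 and 1066 in Mito WT, against 2235, 2152 and 1843 in Total otp90 and 2053, 2223 and 2379.6 in Total WT. It differed by -0.80 (SE 0.107, adjusted p 0.00107) in otp90 and -0.90 (SE 0.122, adjusted p 0.00179) in WT (edgeR, Benjamini-Hochberg), and for both genes all Mito libraries were below all Total libraries of their genotype.

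The gene accD, for a subunit of the acetyl-CoA carboxylase that starts fatty acid synthesis, had 81.2, 173 and 121 CPM per kilobase in Mito otp90 and 149.8, 186 and 167 in Mito WT, against 380.1, 411 and 388 in Total otp90 and 375, 339.5 and 398 in Total WT. On the log2 scale accD differed between Mito and Total by -1.63 (SE 0.254, adjusted p 0.00201) in otp90 and -1.15 (SE 0.123, adjusted p 0.000871) in WT (edgeR, Benjamini-Hochberg). On the same strand downstream lies cemA, for a protein of the envelope membrane, with 513, 1009 and 607 CPM per kilobase in Mito otp90 and 991, 1136 and 823 in Mito WT, against 2074, 2126 and 1836 in Total otp90 and 2009, 2012 and 2353 in Total WT. For cemA it was -1.49 (SE 0.248, adjusted p 0.00265) in otp90 and -1.11 (SE 0.152, adjusted p 0.0019) in WT (edgeR, Benjamini-Hochberg), again without overlap.

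The 2 longest genes, ycf1 and ycf2, encode proteins linked to protein import. For ycf1, whose levels were given with the extremes, the log2 fold changes of Mito over Total were -0.74 (SE 0.261, adjusted p 0.0507) in otp90 and -1.35 (SE 0.112, adjusted p 0.000499) in WT (edgeR, Benjamini-Hochberg), so that it passed in WT only. The difference between both values is the same as that between the genotype effects in the 2 extracts, which did not pass. In contrast, ycf2 had 259, 317 and 306 CPM per kilobase in Mito otp90 and 276, 299 and 261 in Mito WT, against 289.6, 299.8 and 222 in Total otp90 and 251, 256 and 332 in Total WT, with overlapping groups and log2 fold changes of 0.14 in otp90 and -0.00244 in WT that did not pass. Within each library the ratio of accD to ycf2 was 0.313, 0.545 and 0.396 in Mito otp90 and 0.543, 0.622 and 0.639 in Mito WT, against 1.31, 1.37 and 1.75 in Total otp90 and 1.5, 1.33 and 1.2 in Total WT. Per length, accD RNA was thus below ycf2 RNA in all 6 Mito libraries and above it in all 6 Total libraries, a pair chosen after its values were seen.

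The length of the gene went with the fold change. Across the 30 distinct genes the Spearman correlation of exon length with the log2 fold change of Mito over Total was 0.47 in otp90 and 0.44 in WT. Across the 45 photosynthesis genes it was 0.45 in otp90 and 0.62 in WT. Of the 11 genes under 400 bases, 9 were lower in otp90 (median -1.29) and 10 in WT (median -1.25), and of the 19 longer ones 9 were lower in otp90 (median -0.74) and 12 in WT (median -0.86). These correlations run across genes, which share their libraries and often their transcripts, and the limit of 400 bases was set after the values were seen, so no p is given. The gene rps14, with 303 bases, and ycf1, with 5361, lay off this trend. Of the short genes, rpl32, rpl33, rps16, rps18, rps15 and rpl14 were below the median of the longer ones in both genotypes. Some others were no lower than that median, or only little. The shortest, rpl36 with 114 bases, had -0.77 in otp90 and -0.80 in WT. With 279 bases rps19 had -0.69 in otp90 and -0.79 in WT, and with 282 bases rpl23 had -0.57 and -0.72.

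**Figure D4:**
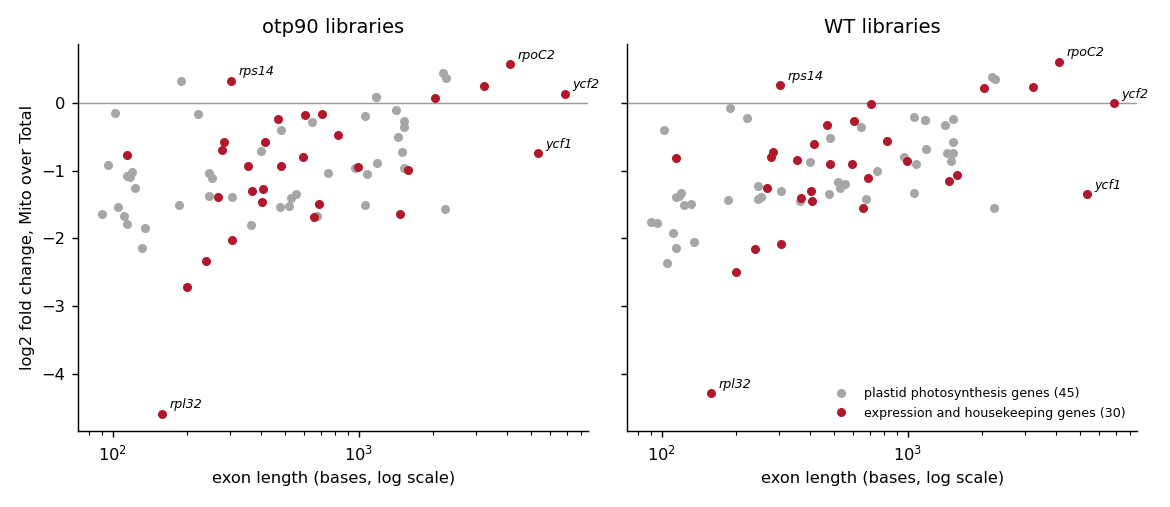
Log2 fold change of Mito over Total against exon length in bases on a log axis, in otp90 (left) and WT (right), for the 30 distinct genes and the 45 plastid photosynthesis genes. Short genes lie lower on the whole, with rpl32 lowest at 159 bases, and rps14 and ycf1 are among the genes off the trend.

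Replicate libraries of a group differed in all these genes together. In Mito otp90, replicate 1 was the lowest of the 3 libraries for 25 of the 30 distinct genes and replicate 2 the highest for 29. In Mito WT, replicate 1 was lowest for 24 and replicate 2 highest for 22. In Total otp90, replicate 3 was lowest for 28, and in Total WT, replicate 3 was highest for 30 of 30. The median coefficient of variation of these genes was 28.8% in Mito otp90 and 14.8% in Mito WT, against 15.3% in Total otp90 and 11.3% in Total WT. For all genes over 10 CPM it was 6.45%, 5.76%, 10.3% and 12.0% in the same groups. The share of all plastid genes in these libraries ranged from 42.7% to 48.9% of counts in Mito and from 56.7% to 62.2% in Total, and its part in the spread was not tested.

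The counts in otp90 depended on single libraries. Without Mito otp90 replicate 1 the number of genes lower in Mito was 11, and without replicate 3 it was 9, as against 20 with all libraries. Without Total otp90 replicate 1 it was 12, without replicate 2 it was 15 and without replicate 3 it was 26. The share of all genes lower in Mito moved as well, from 22.3% with all libraries to 15.9% without Mito otp90 replicate 1, 15.9% without Mito otp90 replicate 3, 19.2% without Total otp90 replicate 1, 24.9% without Total otp90 replicate 2 and 27.0% without Total otp90 replicate 3. In WT the number of members stayed between 21 and 27 when any 1 library was left out. The share of all genes lower in Mito moved in WT too. It was 20.9% with all libraries, 13.0% without Mito WT replicate 3 and 31.4% without Total WT replicate 2, with the other fits between. The genes accD, cemA, clpP, matK, rpl14, rpl32, rpl33, rps16 and rps18 passed as lower in each of these 12 fits.

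Nuclear genes for partners of these proteins were counted beside them. Of 20 genes for plastid ribosomal proteins imported from the cytosol, 18 were lower in Mito in otp90 (median -0.52) and 20 in WT (median -1.0), such as PRPL35 (AT2G24090), whose log2 fold change was -0.84 in otp90 and -1.36 in WT. Of 8 nuclear subunits of the Clp protease core, 8 were lower in both genotypes (median -0.65 in otp90 and -0.71 in WT). Of 4 nuclear subunits of the plastid acetyl-CoA carboxylase, 2 were higher in Mito in both genotypes and 0 were lower. These were CAC3 (AT2G38040), with 0.55 in otp90 and 0.46 in WT, and BCCP2 (AT5G15530), with 2.15 in otp90 and 1.25 in WT. Between the genotypes in Total, BCCP2 was under the filter on low counts. Of 12 proteins that bind the plastid-encoded polymerase, 4 were higher and 2 lower in otp90 (median 0.27), and 1 was higher and 5 lower in WT (median -0.33). Among them PTAC7 (AT5G24314) was lower in both, with log2 fold changes of -1.09 in otp90 and -1.40 in WT. Between otp90 and WT none of these nuclear genes passed in Mito (edgeR). There 7 of the ribosomal proteins and 4 of those that bind the polymerase had an unadjusted p under 0.05, as had 6.96% of all genes. The medians of these lists, in the same order, were 0.15 and 0.14 in Mito but -0.26 and -0.23 in Total. None of those tested passed in Total, where 1 carboxylase subunit stayed under the filter. In Total 1 Clp subunit had an unadjusted p under 0.05 (edgeR), as had 2.98% of all genes.

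The comparison of otp90 with WT set the mutant against the wild type in each extract. In Mito libraries 0 of the 34 genes passed (edgeR quasi-likelihood test, Benjamini-Hochberg), with a median log2 fold change of -0.08 and 0 genes at an unadjusted p under 0.05. Over all 16570 genes tested 0.0604% passed and 6.96% had an unadjusted p under 0.05. The DESeq2 Wald test also gave 0 genes, with 1 at an unadjusted p under 0.05, and the 2 groups overlapped for each of the 34 genes. In Total libraries 0 of the 34 genes passed in edgeR and in DESeq2, with a median of -0.09, where 0.0% of all 15373 genes passed. At an unadjusted p under 0.05 there was 1 member, ycf1, where this held for 2.98% of all genes, and 2 members by DESeq2.

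**Figure D5:**
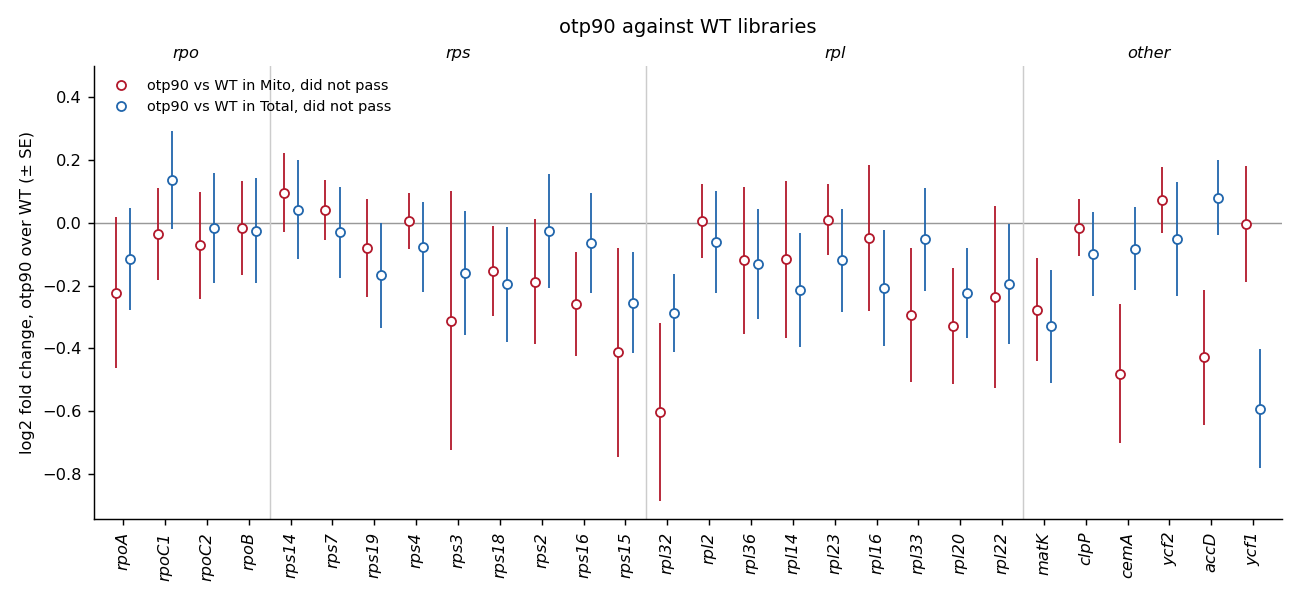
Log2 fold change of otp90 over WT for 28 of the 30 distinct genes in Mito (left of each pair) and Total libraries, with bars of 1 SE from the edgeR fit. All points are open, since none passed, and the lowest are rpl32 in Mito at -0.60 and ycf1 in Total at -0.59.

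The smallest unadjusted p-values in Mito belonged to cemA, rpl32 and accD. Their log2 fold changes were -0.48 (SE 0.22, adjusted p 0.727), -0.60 (SE 0.282, adjusted p 0.737) and -0.43 (SE 0.214, adjusted p 0.745) (edgeR, Benjamini-Hochberg), all lower in otp90. On the other side, the smallest p-values among positive values were those of rps14 with 0.10, ycf2 with 0.07 and rps7 with 0.04. Mito otp90 replicate 1 was the lowest Mito library for cemA and accD, and replicate 2 lay within the range of Mito WT for both.

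Same-numbered Mito libraries deviated together from their group means, so the fit with the replicate number as a block is given beside. With this block 5 genes were lower in Mito otp90 than in Mito WT, where 0.471% of all genes were lower. They were rpl32 with -0.57 (SE 0.0733, adjusted p 0.00158), cemA with -0.53 (SE 0.116, adjusted p 0.0399), rpl20 with -0.36 (SE 0.0787, adjusted p 0.0401), rpl33 with -0.32 (SE 0.0717, adjusted p 0.0454) and accD with -0.49 (SE 0.11, adjusted p 0.0471) (edgeR, Benjamini-Hochberg). None of the 34 was higher in that fit, and 14 had an unadjusted p under 0.05. The share of all genes at that p with the block is not given here, so no result is read from the 14. Over all genes 221 passed with the block, against 10 without it. Hence a genotype difference of these 5 genes in Mito was called only when the replicates were paired. The labels give replicate numbers only and do not state that same-numbered otp90 and WT libraries belong together. The pairing was taken from the counts themselves. The block also adds terms to a fit of 6 libraries, which leaves less information to estimate the spread. Without the block the 45 photosynthesis genes had a median log2 fold change of 0.05, from -0.49 to 0.20. Of them 0 passed and 1 had an unadjusted p under 0.05 (edgeR), against 0 and 0 of the 34 genes. For the photosynthesis genes the result with the block is not given here. Whether lower values were particular to the 5 genes can therefore not be told from the values given here.

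In Total libraries ycf1 had the smallest p, with a log2 fold change of -0.59 (SE 0.189, adjusted p 0.9997) and an unadjusted p of 0.0172 (edgeR), and the 3 otp90 libraries were below the 3 WT libraries. The same absence of overlap was seen for matK, rpl20 and rpl32, thus for 4 genes lower and 0 higher, where 4.33% of all genes were lower without overlap. For rpl32 the log2 fold change was -0.29 (SE 0.124, adjusted p 0.9997) and for matK -0.33 (SE 0.18, adjusted p 0.9997) (edgeR, Benjamini-Hochberg). The largest positive values were those of rpoC1 with 0.14, accD with 0.08 and rps14 with 0.04, all with overlapping groups. In Total otp90, replicate 3 was the lowest library for most genes, and without it ycf1 still did not pass.

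The difference between the 2 genotype effects was tested directly. In the interaction 0 of the 34 genes passed in edgeR and in DESeq2, with 0 at an unadjusted p under 0.05, where 0.0% of 16825 genes passed. The largest differences were those of ycf1, with 0.59 (SE 0.303, adjusted p 0.93), accD, with -0.50 (SE 0.298, adjusted p 0.93), cemA, with -0.39, and rpl32, with -0.32, as the log2 effect in Mito minus that in Total (edgeR, Benjamini-Hochberg). By class, the medians of the genotype effect in Mito were -0.05 for rpo, -0.12 for rps, -0.12 for rpl and -0.02 for the others, and in Total they were -0.02, -0.08, -0.13 and -0.08 in the same order. Polymerase, ribosomal and other genes therefore showed no called difference between otp90 and WT without the block, with SEs of 0.0881 to 0.413 in Mito and 0.12 to 0.198 in Total on the log2 scale. These SEs are not a limit of detection, since differences well above their SE did not pass either. Examples were rpl32 in Mito, at -0.60 (SE 0.282), and ycf1 in Total, at -0.59 (SE 0.189). With 3 libraries a group, differences of such a size may be present and not called.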

How the data were processed

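RNA of leaves was sequenced in 12 libraries (4 groups of 3). Per the study's methods, ribosomal RNA was depleted, stranded libraries gave single reads of 75 bases, and STAR aligned them with introns not opened and all best positions kept. The authors deposited raw counts of reads per gene, made with featureCounts 1.6.3 (strand setting 2, exons summed per gene, reads on 2 genes of a strand left out, reads with several positions counted at each) on the TAIR10 annotation of Ensembl Genomes release 39.

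From these counts, edgeR 4.0.16 (TMM factors, quasi-likelihood test, R 4.3.3) was fitted to all genes with over 1 CPM in at least 3 libraries, on the 6 libraries of each comparison and on all 12 for the interaction, with Benjamini-Hochberg adjustment over all genes tested and a threshold of 0.05. SEs are derived from the fit's F statistic. DESeq2 1.42.0, other scalings, merged repeat copies, no filter, 1 fit of all libraries and leaving out each library were alternatives. The procedure was tested on simulated data. The genes and lists were chosen with earlier results of these data known. Values in every library are given for the rpo genes and the others, the 3 highest and 3 lowest in mean level and the 3 with the smallest p in each direction of a comparison. A fit with the replicate number as a block was a further alternative, made for every comparison. It is given beside the main fit where same-numbered libraries deviated together, and otherwise only among the alternatives. Between Mito otp90 and Mito WT the correlations of same-numbered libraries across genes were 0.403, 0.386 and 0.107, each over 0.1. In no other comparison were all 3 over 0.1. Levels and counts of nearby or repeated genes share the limits of the counting given above. The values of 2 of the 34 genes are part of all counts and medians and are not reported here one by one.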

Additional observations from a re-analysis of the deposited data

How the results depend on the processing

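With the replicate block, 5 genes were lower in Mito otp90 than in Mito WT, as against 0 without it, and 0 were higher in Mito than in Total in otp90. This last count was also 0 with DESeq2 size factors and with the repeat copies merged. With library size alone, 9 genes were lower and 6 higher in Mito in otp90 (7.41% and 53.8% of all genes), and 15 lower and 6 higher in WT (5.96% and 47.4% of all genes). Scaled to plastid counts without psbA, 13 were lower and 6 higher in otp90, and 14 lower and 6 higher in WT. In WT the log2 fold change of ycf2, near 0 and without a direction in the TMM scaling, was 0.49 for both copies with library size alone and 0.52 with plastid counts, where the median of all genes moved to 0.48 and 0.51. Leaving out 1 library gave 9 to 26 genes lower and 0 to 1 higher in Mito in otp90, 21 to 27 lower and 0 to 1 higher in WT, and 0 in either direction for the genotypes and the interaction. In those fits 15.9% to 27.0% of all genes were lower in Mito in otp90, and 13.0% to 31.4% in WT. With repeat pairs entered once, the median level of the others was 502 CPM per kilobase in Mito otp90 and 631 in Mito WT, against 1202 in Total otp90 and 1248 in Total WT, and that of rps genes was 317 in Mito otp90 and 355 in Mito WT. The cause of these shifts was not tested. With the block, 14 genes had an unadjusted p under 0.05 between Mito otp90 and Mito WT, against 0 without it, and 221 of all genes passed, against 10. The share of all genes at that unadjusted p with the block is not given here. The block moved no other count of genes that passed among the 34 by over 1.5 times. All counts of these genes were 317 or more, and the precision rests on 3 libraries a group.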
